A study of Mus musculus with 2 samples.

Results

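The genes described here encode the collagen IV network and the laminin and nidogen chains of epithelial basement membranes: the 6 collagen IV chains Col4a1 to Col4a6, the laminin chains Lama5, Lamb2 and Lamc1, and nidogen 1 (Nid1). They were chosen by name, as every non-control probe whose RefSeq accession belongs to one of these genes, which gave 15 probes for 10 genes out of 55681 probes and 20660 named genes. RNA came from lung epithelial cells of C57BL/6 mice aged 10 weeks, with 1 Agilent array for cells labelled Mob1DKO and 1 for wild-type (WT) cells, both labelled with Cy3. Mob1DKO is not spelled out in the labels and is taken here to mean loss of Mob1a and Mob1b, adaptor proteins of the Hippo pathway. The alleles, any Cre driver or inducing agent, the number of animals behind each RNA and their sex are not stated there.

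Collagen IV is the network-forming collagen of basement membranes, the thin sheets on which epithelia and endothelia rest. Its chains join into trimers of fixed makeup. Col4a1 and Col4a2 form the trimer found in nearly all basement membranes, Col4a3 and Col4a4 join with Col4a5 in the alveolar and glomerular basement membranes, and Col4a5 with Col4a6 in those of airways and smooth muscle. The genes of each pair lie head to head on opposite strands of 1 chromosome. Laminins are trimers of an alpha, a beta and a gamma chain, and Nid1 links the gamma chain to collagen IV. Loss of Col4a3, Col4a4 or Col4a5 causes Alport syndrome.

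There were no replicates, so no test was possible and every difference compares 2 RNA preparations. Levels are log2 of the scanner software's processed signal minus the 75th percentile of the array, and differences are Mob1DKO minus WT. A gene counts as at least 2-fold higher or lower when its difference reaches 1 in size and it is well above background, by the scanner software's flag, on the brighter array. The technical error comes from probes printed at 10 spots: the SD of a single-spot difference was 0.37 for probes with a mean level below −2, 0.24 between −2 and 0, 0.10 between 0 and 2, 0.064 between 2 and 4 and 0.054 above 4. It covers spots on these 2 arrays and leaves out the spread between animals and between preparations. The processed signal at the 75th percentile was 291 in Mob1DKO and 155 in WT, so an unscaled signal is generally higher on the former.

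The label was checked on Mob1b, whose level was −2.98 in Mob1DKO and −0.98 in WT. Mob1a differed by 0.07 on a single faint probe, which checks nothing about a deletion, since its place relative to any deleted part is unknown here. The epithelial markers Epcam, Cdh1, Krt8, Krt18 and Nkx2-1 all passed the background filter in both samples, with differences from −0.13 to 0.18. Of 10 endothelial markers, 5 were well above background in both samples: Pecam1, Kdr, Esam, Egfl7 and Vwf. The brightest was Kdr, with levels of 4.63 in Mob1DKO and 5.23 in WT. The median difference of these 5 was −0.15. It ran from −0.60 for Kdr, whose second probe differed by 0.05, to 0.53 for Egfl7. Cdh5, Tek, Tie1, Emcn and Cldn5 were not well above background in either sample. Of 11 fibroblast and smooth muscle markers, 11 were above background in Mob1DKO and 10 in WT, so neither preparation was free of mesenchymal RNA, which is itself a source of collagen IV. Xist was 4.90-fold lower on the Mob1DKO array but well above background on both, at levels of −1.48 and 0.82. The Y-linked Eif2s3y was at least 29.6-fold higher on the Mob1DKO array. The sex of the animals behind either RNA is not settled by these values, and sex and genotype cannot be told apart.

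Promoter sequences from RefSeq (GRCm38.p6) ran from 250 bases before to 50 after a gene's start. They show how the genes of a pair lie to each other, and whether this bears on the differences was not tested. Windows were found for 8 of the 10 genes, not for Col4a3 and Lamc1, so the arrangement of Col4a3 and Col4a4 was not seen. The windows of Col4a1 and Col4a2 share 78 bases, and their starts lie 21 bases apart, with each gene read across the other's start. The stretch from the Col4a2 start to the Col4a1 start, on the plus strand at chr8:11312805-11312826, holds a GC box.

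between Col4a2 and Col4a1 starts: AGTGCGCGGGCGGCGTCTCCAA

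The starts of Col4a5 and Col4a6 lie 1343 bases apart, and their windows share no base. The next sequences run from 250 bases before the start to 10 after it. Col4a5 is on the plus strand at chrX:141475169-141475428 and Col4a6 on the minus strand at chrX:141474067-141474326. Capitals mark a CCAAT box (CCAAT), a GC box (GGGCGG) or the core of a TEAD site (GGAATG), on either strand.

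Col4a5 promoter: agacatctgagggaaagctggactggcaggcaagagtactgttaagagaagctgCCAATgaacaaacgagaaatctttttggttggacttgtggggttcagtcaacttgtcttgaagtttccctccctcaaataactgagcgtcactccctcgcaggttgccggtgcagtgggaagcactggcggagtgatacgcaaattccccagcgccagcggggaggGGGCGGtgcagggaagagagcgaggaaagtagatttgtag
Col4a6 promoter: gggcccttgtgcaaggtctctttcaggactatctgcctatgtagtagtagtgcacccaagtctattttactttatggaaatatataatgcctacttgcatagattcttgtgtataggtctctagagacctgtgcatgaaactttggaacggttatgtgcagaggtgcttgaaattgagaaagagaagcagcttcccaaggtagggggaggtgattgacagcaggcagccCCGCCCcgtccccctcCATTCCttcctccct

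The TEAD core, the motif of the factors that YAP and TAZ bind, was in 2 of the 8 windows (Col4a6 and Nid1), and in 14.7% of all 32851 promoter windows of this length. A GC box was in 6 of the 8 windows against 35.7% of all, and a CCAAT box in 4 of the 8 against 37.4%. The Col4a1 and Col4a2 windows overlap and are not independent in these counts. The only GC box of the Col4a1 window is the one in the stretch printed above, which the Col4a2 window also holds. A TATA box (TATAAA) was in none of the 8 and in 13.6% of all windows. GC content was 74.0% in the Col4a1 window and 73.7% in that of Col4a2, but 52.7% for Col4a5 and 48.3% for Col4a6, beside a median of 52.7% over all windows. These matches describe letters only.

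Among the 10 genes, 1 was at least 2-fold higher on the Mob1DKO array, Col4a3, and 1 at least 2-fold lower, Col4a5. Over all 15099 genes measured, that is above background in at least 1 sample, 3.79% were higher and 2.91% lower by the same rule, so 1 gene each way in a list of 10 is a small count. Among the 13866 genes above background in both samples, as the 10 members were, the shares were 1.25% and 1.43%. By probe, 13 of the 15 were above background in both samples, of which 1 was at least 2-fold higher and 2 lower, beside 1.2% and 1.37% of all such named probes. The median difference was 0.02 over the 10 genes and 0.02 over all measured genes. The 3 collagen IV pairs did not move together. The pair mean was −0.05 for Col4a1 and Col4a2, 0.74 for Col4a3 and Col4a4, and −0.60 for Col4a5 and Col4a6. The 0.74 averages 1.30 and 0.19, and the −0.60 averages −1.23 and 0.02, so neither describes both chains. The 0.74 uses the Col4a4 probe that is brightest by mean level over both arrays. It leaves out another at −4.05, which was the brightest on the WT array alone.

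**Figure D1:**
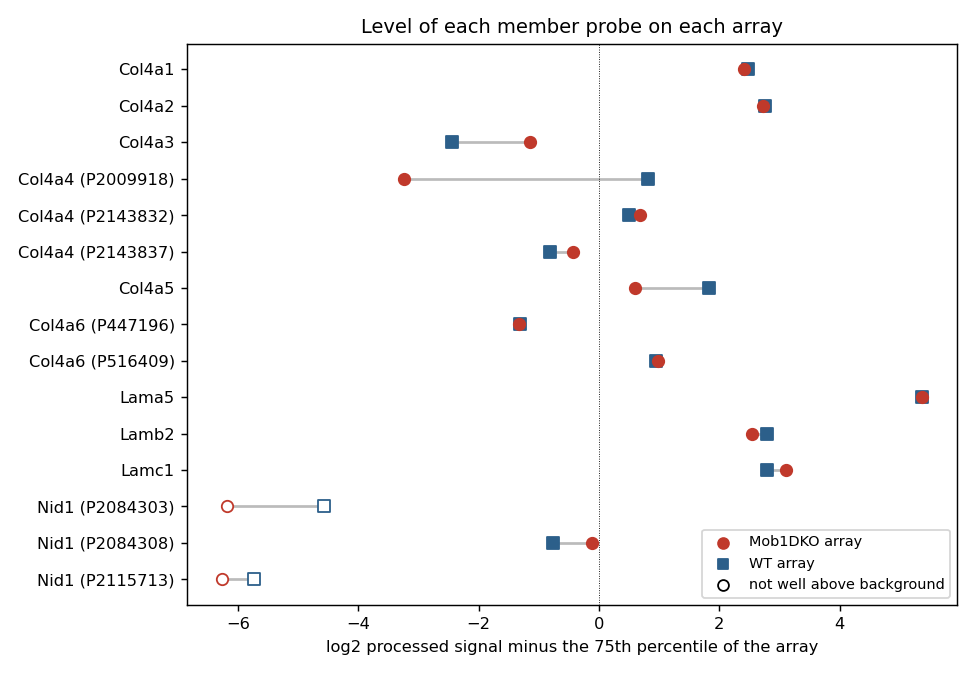
Level of each of the 15 probes on the Mob1DKO array (red circles) and the WT array (blue squares), as log2 processed signal minus the array's 75th percentile; open symbols were not well above background. The symbols lie apart for Col4a3, Col4a5 and 1 of the 3 Col4a4 probes and nearly coincide for Col4a1, Col4a2, Col4a6 and Lama5. Levels of different probes cannot be set against each other.

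Col4a1 and Col4a2, the chains of the trimer common to basement membranes, differed little. The Col4a1 probe was printed at 10 spots. On the WT array its level ran from 2.39 through a median of 2.48 to 2.55, and on the Mob1DKO array from 2.26 through 2.42 to 2.50. The 2 sets of spots overlap, and 8 of the 10 positions were lower on the Mob1DKO array. The mean signals gave a difference of −0.07, larger in size than its technical SD of 0.020. This is the most precise value among the 10 genes, and it amounts to a WT level 1.05-fold higher.

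**Figure D2:**
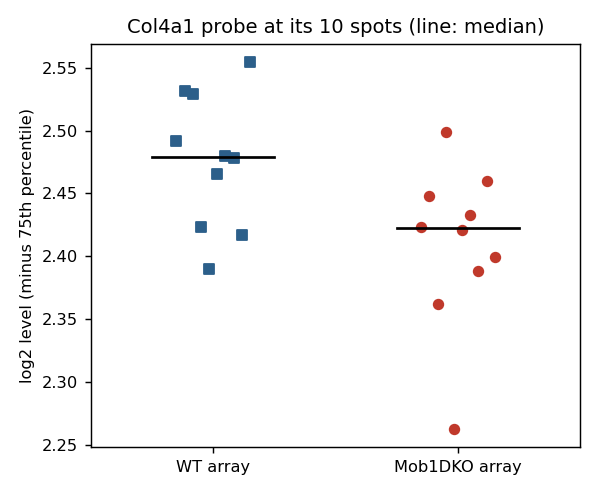
Level of the Col4a1 probe at each of its 10 spots on the WT array (squares) and the Mob1DKO array (circles), in log2 units relative to the 75th percentile, with the median as a line. The medians of 2.48 and 2.42 lie close together beside the range of spots on either array.

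Col4a2 had a processed signal of 1927 in Mob1DKO and 1052 in WT, or levels of 2.73 and 2.76. The difference of −0.04 lay within its technical SD of 0.064. The differences of Col4a1 and Col4a2 were 0.03 apart, again within the technical SD of 0.067. 

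Col4a3 was the highest of the 10 genes by its difference. Its processed signal was 131 in Mob1DKO and 28.4 in WT, from median spot signals of 220.5 and 98.5 over local backgrounds of 65.0 and 66.0. The levels were −1.15 and −2.45, a difference of 1.30 or 2.46-fold with a technical SD of 0.24. That SD goes by the mean level of both arrays, and the WT level alone falls where the SD was 0.37. The WT spot is faint, though well above background, and Col4a3 has 1 probe at 1 spot. Among genes above background on both arrays at a mean level between −2 and 0, 2.14% were at least 2-fold higher. With normexp, a model-based background correction that adds an offset, the difference fell to 0.52 (offset 50) or 0.91 (offset 10), below 2-fold in either case.

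Col4a4, the partner of Col4a3, gave a split result over its 3 probes. The brightest by mean level over both arrays, A_55_P2143832, had a processed signal of 467 in Mob1DKO and 218 in WT. Its levels were 0.68 and 0.49, a difference of 0.19 (technical SD 0.10). The second, A_55_P2143837, had signals of 215 and 88.2 and a difference of 0.38 (technical SD 0.24). These probes differ in the direction of Col4a3 by less than 2-fold.

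The third Col4a4 probe, A_55_P2009918, went the other way. Its processed signal was 30.9 in Mob1DKO and 273 in WT, with median spot signals of 103 and 276 over local backgrounds of 67.0 and 68.0. The levels were −3.24 and 0.81, a difference of −4.05, or 16.6-fold lower, with a technical SD of 0.24. That SD goes by the mean level of both arrays, and the Mob1DKO level alone falls where the SD was 0.37. Neither spot was flagged as an outlier by the scanner software. The gap of 4.43 between this probe and A_55_P2143837 was the widest of 3406 genes with at least 2 probes above background on both arrays, where the median gap was 0.24 and the 90th percentile 0.75. Of 17926 named probes above background on both arrays, 4 were as low as this one or lower. All 3 probes carry the same RefSeq accession, and their places in the transcript are not known here, so the cause was not tested. The gene's value therefore rests on which probe stands for it. On the WT array alone this probe was the brightest of the 3. The choice by mean level over both arrays passed over it, so that choice itself depends on the values compared.

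The differences of Col4a3 and the brightest Col4a4 probe were 1.11 apart, with a technical SD of 0.26. Both genes are widely used as alveolar type 1 cell genes, so the type 1 markers were set beside them. Of 10 measured type 1 markers, none was at least 2-fold higher or lower, where 3.79% and 2.91% of all measured genes were, so a count of 0 in 10 says little. Their median difference was 0.08, in a range from −0.43 (Cav1) to 0.84 (Akap5). Of the 10, 6 had a difference above 0 and 4 below 0. The brightest, Aqp5 and Emp2, differed by 0.28 and 0.07, and Ager, the main type 1 marker, by 0.42. The signals of the 10 markers, summed in units of each array's 75th percentile, came to 152 in Mob1DKO and 129 in WT. Aqp5, with levels of 6.31 and 6.02, weighs most in these sums. In bulk RNA fewer cells of a type and less RNA per cell cannot be told apart, and the part of type 1 cells in the Col4a3 value was not tested.

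**Figure D3:**
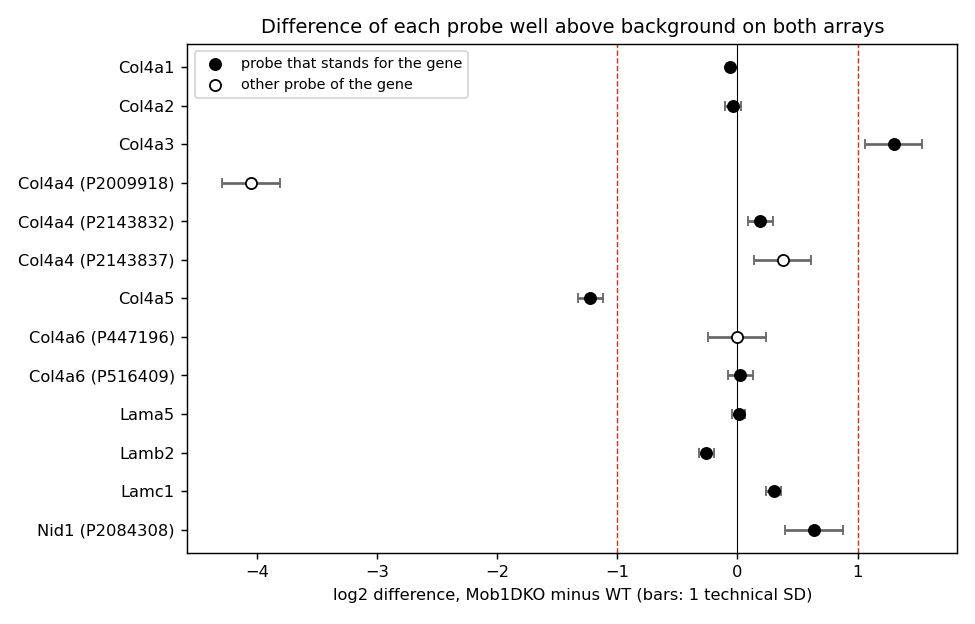
Log2 difference (Mob1DKO minus WT) of the 13 probes well above background on both arrays, with bars of 1 technical SD and dashed lines at 2-fold; filled circles stand for the gene, open circles are its other probes. Col4a3 lies at 1.30, Col4a5 at −1.23 and the third Col4a4 probe at −4.05, and the other 10 probes lie inside the 2-fold lines.

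Col4a5, which joins both the alveolar and the airway trimers, was the lowest of the 10 genes. It was the only member whose processed signal was lower on the Mob1DKO array even before scaling, apart from the third Col4a4 probe and one Nid1 probe not well above background. The signal was 442 in Mob1DKO and 551 in WT, giving levels of 0.60 and 1.83. The difference was −1.23, or 2.34-fold lower, with a technical SD of 0.10. At a mean level between 0 and 2, 0.963% of genes were at least 2-fold lower. The difference was −0.94 with normexp and an offset of 50, just short of 2-fold, and −1.09 with an offset of 10. It rests on 1 probe at 1 spot, annotated to 1 of the gene's 2 curated coding transcripts.

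Col4a6, the partner of Col4a5, differed little on either of its probes. The brighter had processed signals of 571 in Mob1DKO and 299 in WT, with levels of 0.97 and 0.95 and a difference of 0.02 (technical SD 0.10). The dimmer had levels of −1.32 on both arrays and a difference of −0.0035 (technical SD 0.24). The differences of Col4a5 and Col4a6 were 1.25 apart with a technical SD of 0.15, so these genes differed from each other by more than that error.

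Col4a5 and Col4a6 are X-linked, and the arrays also differ in Xist and Y-linked RNA, as given above. Some basal cell keratins were lower on the same array as Col4a5. Of 5 basal cell markers, 3 were at least 2-fold lower, beside 2.91% of all measured genes, with Krt5 at −2.89, Krt17 at −2.57 and Krt15 at −1.57, and the median was −1.57. Krt14 differed by −0.55. Trp63, the brightest of these markers, had probes at −0.23 and −3.36. Lower values were not particular to basal markers. All 3 measured club markers were below 0, with a median of −0.59, and 7 of 9 alveolar type 2 markers, with a median of −0.21. With quantile normalization these medians were −0.14 and 0. The median was −0.25 over mesothelial markers and 0.01 over ciliated markers. Over the 11 fibroblast and smooth muscle markers the median was −0.14, with 1 at least 2-fold higher and 1 lower, beside 3.79% and 2.91% of all measured genes. The higher one was Lum, at least 2.22-fold higher with a WT signal not well above background, and the lower one the pericyte gene Cspg4 at −1.36. The brightest of these markers, Dcn and Col1a2, differed by 0.18 and −0.27, the smooth muscle actin Acta2 by −0.97 and the smooth muscle myosin Myh11 by 0.06. The summed signal of the 11, in which Dcn weighs most, was 103 in Mob1DKO and 110 in WT. The part of these cells in the Col4a5 value was not tested.

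None of the laminin chains was at least 2-fold higher or lower, nor was Nid1. Lama5, the laminin alpha chain of mature epithelial basement membranes, had a processed signal of 12063 in Mob1DKO and 6379 in WT. Its levels of 5.37 and 5.36 gave a difference of 0.01, within a technical SD of 0.054. Lamb2, a beta chain, had signals of 1685 and 1075 and levels of 2.53 and 2.79, a difference of −0.26. Lamc1, the gamma chain shared by most laminins, had signals of 2494 and 1078 and levels of 3.10 and 2.80, a difference of 0.30. For Lamb2 and Lamc1 the size exceeded the technical SD of 0.064. Lamb2 was 1.20-fold lower and Lamc1 1.23-fold higher, and the Lamb2 difference was 0.01 with normexp and an offset of 50.

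Nid1, the linker of laminin and collagen IV, was above background on 1 of its 3 probes. That probe had signals of 268 in Mob1DKO and 91.7 in WT, with levels of −0.12 and −0.76. The difference was 0.64, or 1.55-fold higher, with a technical SD of 0.24. The other Nid1 probes had processed signals between 2.92 and 6.55 and were not well above background in either sample, so they have no order.

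The wider set of basement membrane genes held no gene at least 2-fold higher or lower, beside background shares of 3.79% and 2.91%. All measured genes of these lists were above background in both samples. Among all such genes the shares were 1.25% and 1.43%, so a count of 0 says little. Of 9 other laminin and nidogen genes, 8 were measured and 7 had a difference above 0, with a median of 0.30. Lamb3, a beta chain, differed by 0.10 and Lamb1, another beta chain, by 0.32. The range ran from −0.38 for Lama4, a chain of vascular and mesenchymal laminins, to 0.87 for Nid2, the second nidogen, these extremes being named after their values were seen. Lama1 was not well above background in either sample. Among all measured genes 8045 of 15099 had a difference above 0.

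Of 16 other basement membrane genes, 14 were measured, with a median of 0.07 and 8 above 0. The brightest were Sparc, a collagen-binding matricellular protein (−0.08), and the proteoglycan agrin, Agrn (0.42). A second Sparc probe differed by −0.69, a second Agrn probe by 1.19 and a second Tinagl1 probe by 1.09, against 0.52 for the probe that stands for Tinagl1, which was named after its values were seen. Npnt, which encodes an integrin ligand of basement membranes, had probes at −0.63 and 0.41. The range over the probes that stand for genes ran from −0.78 (Frem2) to 0.91 (Smoc1). With the second brightest probe in place of the brightest, 2 genes of this list were at least 2-fold higher, beside 648 of all 15099 genes. Without spots flagged as outliers 1 was, beside 512 of 14251.

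The 19 genes that modify, fold, export or cross-link collagen IV had a median of −0.06, with 7 above 0 and a range from −0.60 (Loxl2, a lysyl oxidase that cross-links collagen IV) to 0.43 (Plod2, a lysyl hydroxylase). The brightest were Ppib, a prolyl isomerase of the endoplasmic reticulum (−0.17), and P4hb, the beta subunit of prolyl 4-hydroxylase (0.14). All 3 Loxl2 probes lay between −0.66 and −0.54. Serpinh1, the collagen chaperone HSP47, differed by −0.20, and Pxdn, which makes the sulfilimine bond of collagen IV, by 0.05.

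Of the 14 measured receptors for collagen IV and laminin, 7 had a difference above 0, with a median of −0.02 and a range from −0.24 to 0.73. The laminin-binding integrin chain Itga6 differed by −0.05 and its tetraspanin partner Cd151 by −0.24, with a second Cd151 probe at −0.62. Itga1, a collagen IV receptor chain at the upper end of the range, had a second probe at −0.40. Of 9 measured proteases and inhibitors, 5 had a difference above 0, with a median of 0.05. The metalloproteinase inhibitors Timp3 and Timp2 differed by 0.23 and −0.24. Mmp7, Mmp9 and Mmp12 were not well above background in either sample.

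**Figure D4:**
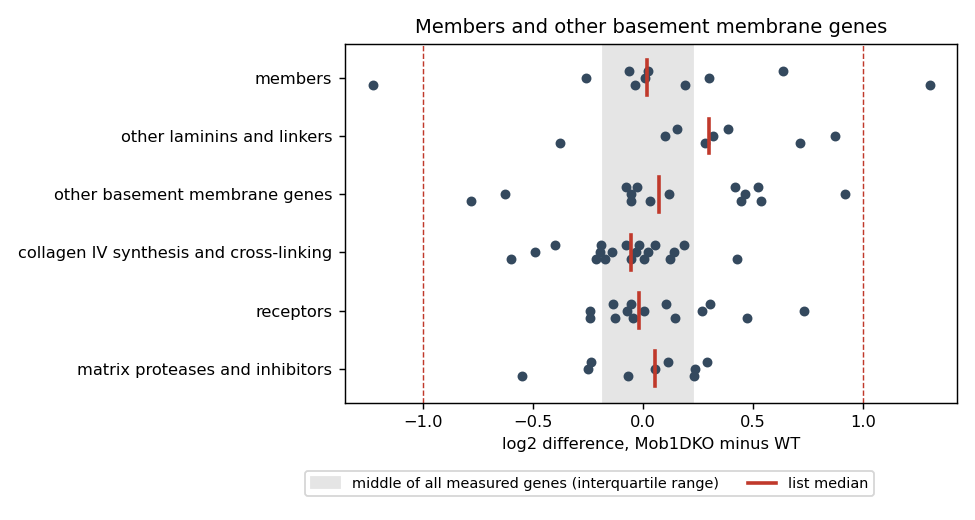
Log2 difference (Mob1DKO minus WT) of each measured gene in the 10-gene set and in 5 lists of related genes, with the list median as a red line, 2-fold as dashed lines and the interquartile range of all measured genes, −0.18 to 0.22, in grey. Col4a3 and Col4a5 lie outside the 2-fold lines, and no gene of the 5 lists does.

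The differences were recomputed under 13 other settings, and are compared after subtracting the median of all genes, which was 0.93 without scaling. On that footing Col4a3 lay between 0.52 and 1.35 and passed 2-fold under 11 of the 13. Col4a5 lay between −1.27 and −0.94 and passed under 12. The third Col4a4 probe lay between −4.09 and −2.17 over the 9 settings that keep probes apart. None of the other 8 genes passed 2-fold under any of these settings once the median was subtracted.

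**Figure D5:**
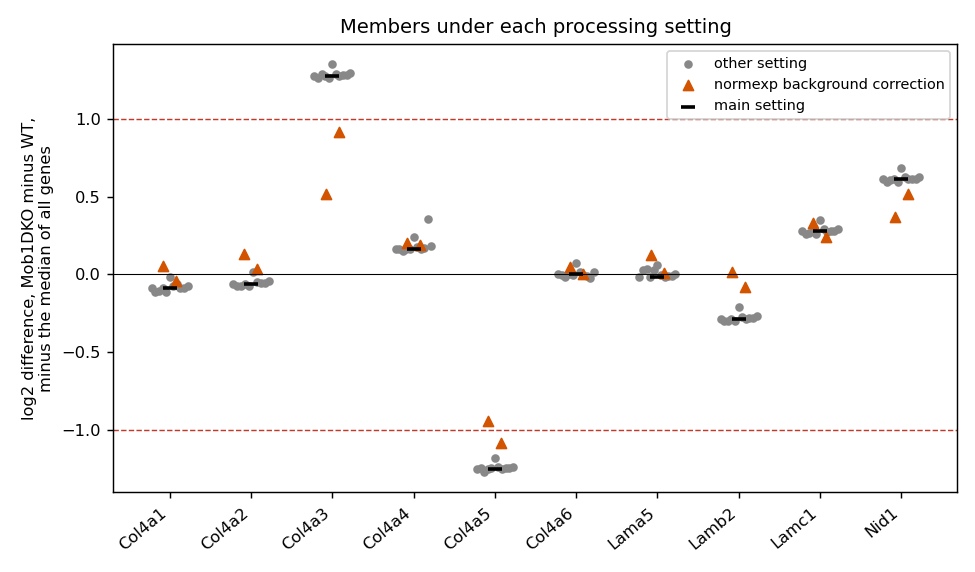
Log2 difference of the 10 genes minus the median difference of all genes, under the main setting (black bar), 11 other settings (grey) and normexp with offsets of 50 and 10 (orange triangles), with dashed lines at 2-fold. The grey points stay close to the black bars, and the triangles for Col4a3 lie at 0.52 and 0.91, inside the line.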

How the data were processed

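The deposited scanner files hold intensity values per spot, made with Agilent Feature Extraction 10.7.1.1 on a grid of build mm9 per the file headers, although version 9.5.1.1 is named in the submitters' processing notes. The processed signal is corrected for background within each array and not scaled between arrays. The authors' deposited value table also holds linear intensity values, with a median of 27.3 in each column; the steps behind it are not stated in the labels or headers, and its columns correlated at 0.9998 and 0.9995 with their own arrays on the log2 scale, across probes.

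Spots of a probe were averaged, log2 was taken, and the 75th percentile over non-control probes was subtracted. Probes were named by RefSeq accession through a symbol table on GRCm38.p6 (27235 probes named). Among probes well above background on at least 1 array, the one with the highest mean level over both arrays stands for a gene. Every member probe is reported. Named genes are all members, and per list up to 4 called genes and the 2 brightest, besides the ends of each range and a few other list genes, which were chosen after their values were seen. The value of 1 list gene is not reported here. Members and lists were chosen with earlier results of these data known. The files hold no mean spot signal, so normexp (limma 3.58.1) used the median signal. The calling script was tested on simulated data. There are no replicates, so no test was run, and precision is limited by having 2 arrays.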

Additional observations from a re-analysis of the deposited data

How the results depend on the processing

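No paired analysis was possible because each group holds 1 array. A value counts as moved here when it shifts by more than its technical SD. Without scaling, which leaves the overall brightness of the arrays in every difference, 4 members were at least 2-fold higher and 0 lower, the median over members was 0.93, and the pair means were 0.86 (Col4a1 and Col4a2), 1.65 (Col4a3 and Col4a4) and 0.31 (Col4a5 and Col4a6). With normexp and an offset of 50, 0 members were higher and 0 lower, the median was 0.13, and the pair means were 0.092, 0.36 and −0.45. With normexp and an offset of 10, an alternative chosen after seeing the data, 0 members were higher and 1 lower, and the pair means of Col4a1 with Col4a2 and of Col4a3 with Col4a4 were −0.0057 and 0.55. Both offsets shrink differences of faint probes by construction. Brighter members moved as well at an offset of 50: Col4a1 from −0.07 to 0.05, Col4a2 from −0.04 to 0.13, Lama5 from 0.01 to 0.12 and Lamb2 from −0.26 to 0.01. Lamc1 stayed within its technical SD, at 0.30 and 0.33. Under the other settings (median scaling, quantiles, loess, the deposited value table, other filters and probe rules, a floor) the counts of members stayed at 1 higher and 1 lower and the pair means and median moved by less than their technical SD. The brightest, second brightest and median of a gene's probes never give the value of the third Col4a4 probe (−4.05). The steadiness of the Col4a3 and Col4a4 pair mean therefore says nothing about that probe. Leaving out spots flagged as outliers removed Col4a2, so its pair has no value there. Over all genes, 572 were higher and 439 lower in the main setting, 6149 and 174 without scaling, 99 and 173 with normexp at an offset of 50, 158 and 294 at an offset of 10, 801 and 1208 with no filter on dim probes, 174 and 198 when both arrays had to be above background, 294 and 386 with the floor, 648 and 489 with the second brightest probe, and 512 and 394 without spots flagged as outliers. Most members rest on 1 probe at 1 spot, where faint WT signals such as that of Col4a3 limit the precision.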
